A study of Mus musculus with 15 samples.

Results

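The genes described here are 32 mouse genes of cholesterol and fatty acid synthesis, taken as a fixed list of symbols from the 57180 Ensembl genes of the deposited tables. Each symbol matched 1 Ensembl identifier, and all 32 genes passed the filter on low counts in both experiments. They comprise 5 genes of the SREBP factors and their control (Srebf1, Srebf2, Scap, Insig1 and Insig2), 8 genes of the mevalonate pathway up to squalene and its epoxidation (Hmgcs1, Mvk, Pmvk, Mvd, Idi1, Fdps, Fdft1 and Sqle), 9 sterol enzymes from the closing of the lanosterol ring to cholesterol (Lss, Cyp51, Tm7sf2, Msmo1, Nsdhl, Hsd17b7, Ebp, Sc5d and Dhcr7), 9 genes that make, elongate and desaturate fatty acids (Acly, Acaca, Acacb, Fasn, Elovl6, Scd1, Scd2, Fads1 and Fads2), and Cpt1a, which admits fatty acids to the mitochondrion for oxidation.

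RNA sequencing of polyA RNA from mouse brainstem was performed in 2 experiments, with 3 libraries in each group and 15 in all. In the AMPK experiment, brainstem tissue of mice labelled AMPKα2-/-, a null of the α2 catalytic subunit of AMP-activated protein kinase, was compared after birth with that of WT littermates labelled AMPK+/+. In the Lmx1b experiment, brainstem tissue of prenatal embryos labelled Lmx1b+/- and Lmx1b-/-, null for 1 or both alleles of the LIM homeobox factor Lmx1b, was compared with that of WT littermates labelled LMX1B+/+. Postnatal days 1 to 5 are named for mice of the study as a whole, but the age at which each library was taken, and whether tissue of several animals was pooled in it, are not given in the sources used here, so that p-values measure the spread between libraries. No treatment of these animals and no restriction of the deletions to a tissue are named.

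Sterol regulatory element binding proteins (SREBPs) are transcription factors held in the endoplasmic reticulum by Scap and the Insig proteins while sterols are plentiful. When sterols run low, Scap carries them to the Golgi, where they are cut free to enter the nucleus and switch on the enzymes of cholesterol synthesis (chiefly through Srebf2) and of fatty acid synthesis (chiefly through Srebf1). AMPK is known to phosphorylate and inhibit acetyl-CoA carboxylase, the product of Acaca and Acacb. Because lipoproteins hardly cross the blood-brain barrier, the brain makes its own cholesterol, most of it in the cells that lay down myelin during development.

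Promoters are shown for genes that were called in the comparisons described here and for the first enzyme of the list. RefSeq promoters of 300 bases, running from 250 bases before to 50 bases after an annotated start in GRCm38.p6, were matched by symbol for 26 of the 32 genes, and Fdps, Fdft1, Sqle, Scd1, Scd2 and Fads1 were without an entry. The CCAAT box (CCAAT on either strand), the element bound by NF-Y, was present in at least 1 promoter of 22 of these 26 genes (84.62%), against 41.06% of all genes with a promoter in the table. The core of a sterol regulatory element (TCACNCCAC on either strand) was present in 1 of the 26 (3.846%), Hmgcs1, against 1.436% of all genes. The following promoters belong to the SREBP gene Srebf2, to Hmgcs1, the first enzyme, and to Msmo1 and Fasn, which moved in opposite directions. Capitals mark CCAAT, its reverse complement ATTGG and, in Hmgcs1, TCACCCCAC.
Srebf2: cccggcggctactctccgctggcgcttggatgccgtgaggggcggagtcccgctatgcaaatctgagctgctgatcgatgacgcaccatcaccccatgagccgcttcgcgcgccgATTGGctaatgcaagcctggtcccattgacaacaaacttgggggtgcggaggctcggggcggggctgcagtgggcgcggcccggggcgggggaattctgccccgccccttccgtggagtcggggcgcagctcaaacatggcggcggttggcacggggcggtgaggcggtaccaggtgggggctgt
Hmgcs1: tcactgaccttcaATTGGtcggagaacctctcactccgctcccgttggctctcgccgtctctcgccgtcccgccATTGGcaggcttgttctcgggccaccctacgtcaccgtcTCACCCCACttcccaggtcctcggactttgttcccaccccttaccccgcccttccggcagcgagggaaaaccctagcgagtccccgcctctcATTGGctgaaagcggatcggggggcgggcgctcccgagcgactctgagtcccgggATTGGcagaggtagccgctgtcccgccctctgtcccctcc
Msmo1: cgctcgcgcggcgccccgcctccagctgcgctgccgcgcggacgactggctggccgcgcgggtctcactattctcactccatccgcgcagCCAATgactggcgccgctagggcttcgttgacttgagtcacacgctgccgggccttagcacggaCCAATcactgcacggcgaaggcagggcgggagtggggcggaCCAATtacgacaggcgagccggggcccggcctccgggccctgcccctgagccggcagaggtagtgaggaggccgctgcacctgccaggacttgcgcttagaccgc
Fasn: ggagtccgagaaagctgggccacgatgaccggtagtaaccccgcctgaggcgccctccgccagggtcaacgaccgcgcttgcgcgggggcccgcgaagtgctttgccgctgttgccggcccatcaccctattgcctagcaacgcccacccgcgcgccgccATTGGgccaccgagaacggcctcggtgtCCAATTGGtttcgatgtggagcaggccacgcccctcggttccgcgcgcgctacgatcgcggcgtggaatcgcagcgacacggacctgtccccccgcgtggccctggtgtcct
They lie at chr15:82147019-82147318 on the plus strand for Srebf2, at chr13:119690101-119690400 on the plus strand for Hmgcs1, at chr8:64733529-64733828 on the minus strand for Msmo1 and at chr11:120824498-120824797 on the minus strand for Fasn. Of these, Srebf2 held 1 CCAAT box, Hmgcs1 4, Msmo1 3 and Fasn 3, and 2 of those in Fasn overlap in CCAATTGG. A match describes letters in this window and not a bound site. Only exact matches were counted, so that the lack of a match does not show that a site is absent.

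Library totals ranged from 291212 to 17384171 counts in the AMPK table, where WT 2 (291212) and AMPKα2-/- 3 (335986) were far shallower than the other libraries, and from 28833130 to 37441679 counts in the Lmx1b table. The median count of the 32 genes was 17.5 in WT 2 and 21.5 in AMPKα2-/- 3, and Acacb, Mvk, Mvd and Tm7sf2 had 3 counts or fewer in at least 1 of them. Levels are given in CPM, a gene's share of the TMM-scaled library total in the usual unit of edgeR. The targeted gene followed the Lmx1b-/- label, with Lmx1b at 0.848 to 1.45 CPM where WT had 9.73 to 22.5 CPM (log2 fold change -3.82, SE 0.41, edgeR adjusted p = 0.00287). It did not follow the other labels: Lmx1b lay at 30.5, 11.9 and 14.3 CPM in the libraries labelled Lmx1b+/- (log2 fold change 0.23, adjusted p = 0.618), and Prkaa2, which encodes AMPKα2, at 25.4, 22.3 and 12.1 CPM in those labelled AMPKα2-/-, where WT had 21.9, 26.6 and 29.7 CPM (log2 fold change -0.20, adjusted p = 0.659). Reads outside a deleted part can keep a gene's count up, and which part of Prkaa2 was deleted is not given in the sources used here. The deleted part of Lmx1b is not given either, but its count over the whole gene was low in Lmx1b-/-. Why Lmx1b was not lower in Lmx1b+/-, and why Prkaa2 was not called lower in AMPKα2-/-, was not tested. AMPKα2-/- and Lmx1b+/- are therefore used below as the labels of libraries. Hindbrain Hox genes were present in every group (summed level of 30.8 to 174 CPM). Markers of oligodendrocytes and myelin summed to 14125 to 24278 CPM in the AMPK experiment and to 305 to 540 CPM in the Lmx1b experiment. Adipocyte markers summed to 12.1 CPM in WT 3 of the AMPK experiment and to at most 2.49 CPM in any other library.

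Per gene length, Scd2, a stearoyl-CoA desaturase, stood first of the 32 genes in both experiments, with a mean level of 527 RPKM in WT of the AMPK experiment and 248 RPKM in WT of the Lmx1b experiment. In the AMPK experiment it was followed by the related desaturase Scd1 (126 RPKM) and by Hmgcs1, which makes HMG-CoA (52.9 RPKM), whereas in the Lmx1b experiment Hmgcs1 (126 RPKM) and the fatty acid desaturase Fads2 (81.6 RPKM) came next and Scd1 stood at 18.3 RPKM. The lowest was Acacb, the carboxylase of the outer mitochondrial membrane, at 1.37 and 0.358 RPKM. How reads shared by the related genes Scd1 and Scd2 were counted is not given in the sources used here, so their separate levels are uncertain. The experiments differ in age, sequencing and depth, and these cannot be told apart, so that no test was made between them. Within groups, the libraries spread most in the AMPK experiment, where the median coefficient of variation of the 32 genes was 19.6% in WT and 16.6% in AMPKα2-/-, against 7.57%, 11.2% and 5.25% in WT, Lmx1b+/- and Lmx1b-/- of the other experiment.

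**Figure D1:**
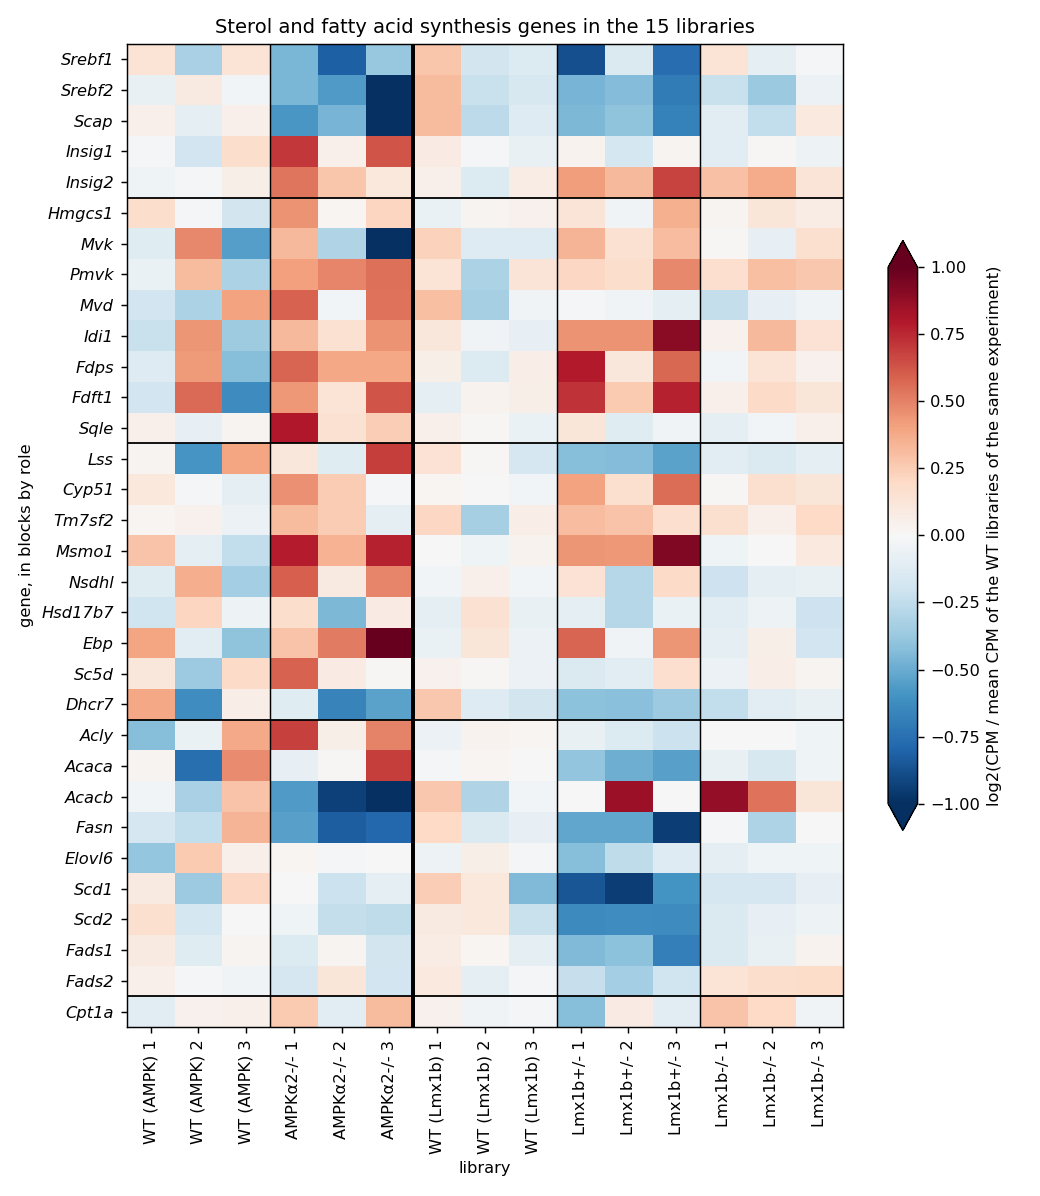
The 32 genes (rows, in blocks by role) in the 15 libraries (columns) as log2 of CPM over the mean CPM of the WT libraries of the same experiment; colours stop at 1 in either direction. The 3 libraries labelled Lmx1b+/- show low values for Srebf2, Scap, Fasn, Acaca, Scd1, Scd2 and Fads1 and high values for Idi1, Fdps, Fdft1 and Msmo1, while those labelled Lmx1b-/- lie close to WT.

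In the AMPK experiment, Fasn, Srebf1 and Srebf2 were lower and Msmo1 was higher in the libraries labelled AMPKα2-/- than in WT, and the other 28 of the 32 genes did not pass the test. Thus 4 of 32 genes had an adjusted p under 0.05 in edgeR's quasi-likelihood test, 3 lower and 1 higher, against 8.94% of all 17397 tested genes (5.17% lower and 3.77% higher). Groups of 3 libraries did not overlap for 9 of the 32, against 26.6% of all tested genes, and 15 of the 32 had an unadjusted p under 0.05, against 24.6%. The median log2 fold change was 0.21 over the 32 genes and -0.01 over all tested genes. It was 0.06 over the 32 genes without AMPKα2-/- 1 and 0.04 when scaled by library size only. In bulk tissue, fewer cells of a type and less RNA per cell cannot be told apart.

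Fasn, the fatty acid synthase, lay at 265, 250 and 375 CPM in WT compared with 203, 168 and 172 CPM in AMPKα2-/-, without overlap. It fell by 39.6% (log2 fold change -0.73, SE 0.18, adjusted p = 0.0130). Srebf1, the SREBP of fatty acid synthesis, was measured at 77.9, 56.6 and 78.0 CPM in WT compared with 51.5, 40.2 and 54.4 CPM in AMPKα2-/-, so that the lowest WT library and the highest AMPKα2-/- library lay close together (log2 fold change -0.66, SE 0.19, adjusted p = 0.0299). Srebf2, the SREBP of cholesterol synthesis, was measured at 133, 150 and 138 CPM in WT compared with 102, 94.7 and 69.5 CPM in AMPKα2-/- (log2 fold change -0.57, SE 0.17, adjusted p = 0.0371). All 3 AMPKα2-/- libraries were below all WT libraries for these genes. Msmo1, the sterol C4-methyl oxidase, moved the other way, with 99.3, 76.5 and 68.6 CPM in WT against 140, 104 and 139 CPM in AMPKα2-/- (log2 fold change 0.60, SE 0.19, adjusted p = 0.0478). The next gene in order of p was Fdps, which makes farnesyl diphosphate, at 31.8, 46.6 and 25.8 CPM in WT and 51.9, 45.5 and 45.3 CPM in AMPKα2-/-, where the groups overlapped (log2 fold change 0.65, SE 0.21, adjusted p = 0.0526).

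By role, 0 of the 8 mevalonate genes passed the test, with fitted log2 fold changes from 0.20 to 0.65, a median of 0.45 and 5 genes at an unadjusted p under 0.05. The lowest of these values was that of the mevalonate kinase gene Mvk, at 17.5, 26.6 and 13.0 CPM in WT and 23.8, 15.5 and 9.07 CPM in AMPKα2-/-. For Mvk the mean of the libraries was thus lower in AMPKα2-/-, against the sign of the fitted value, which turned negative with limma and without AMPKα2-/- 1. Among the 9 sterol enzymes, 7 had a positive log2 fold change and 1 (Msmo1) was called. The 9 fatty acid genes ranged from -0.86 for Acacb, which lay at or near the detection limit in the shallow libraries, to 0.42 for Acly, which splits citrate to supply acetyl-CoA, and 1 (Fasn) was called. Scap, the escort of the SREBPs, lay at 46.6 to 51.6 CPM in WT and 24.2 to 36.3 CPM in AMPKα2-/- without overlap and did not pass the test (adjusted p = 0.0532). Levels of Cpt1a were 36.1 to 40.2 CPM in WT and 36.0 to 48.4 CPM in AMPKα2-/-.

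The 4 calls depended on single libraries. Without the 2 shallow libraries, 0 of the 32 genes and 6 of all tested genes were called, and the log2 fold changes were -0.78 for Fasn (adjusted p = 0.155), -0.76 for Srebf1 (0.133), -0.46 for Srebf2 (0.209) and 0.55 for Msmo1 (0.253). Leaving out 1 library at a time, the count was 8 without WT 1, 4 without WT 2, 1 without WT 3, 1 without AMPKα2-/- 1, 4 without AMPKα2-/- 2 and 0 without AMPKα2-/- 3. All 4 calls were kept without WT 1, and 2 of the 4 without WT 2 and without AMPKα2-/- 2. Scaled by library size only, which moved the median of all genes to -0.18, the calls were 5 lower and 0 higher. The shares of all tested genes called with 1 library left out or under this scaling are not given. Mitochondrially encoded genes took 10.4% to 13.9% of counts in WT and 20.0% to 21.7% in AMPKα2-/-, and skeletal muscle markers, of which 6 of 6 tested were lower, summed to 11.7, 9.98 and 883 CPM in WT against 6.04 to 10.5 CPM in AMPKα2-/-. Adipocyte markers, of which 0 were tested, summed to 0.724, 0 and 12.1 CPM in WT and to at most 1.49 CPM in AMPKα2-/-. The part of any of these in the result was not tested. Of the other marker lists, 5 of 11 synaptic markers were called (4 lower and 1 higher, summed level of 4300 to 4603 CPM in AMPKα2-/- and 3887 to 4801 CPM in WT). Likewise 2 of 6 cerebellar granule markers were lower (54.4 to 102 CPM and 168 to 202 CPM), 2 of 4 choroid plexus markers higher (36.7 to 133 CPM and 9.98 to 16.0 CPM) and 2 of 5 erythroid markers higher (299 to 485 CPM and 246 to 322 CPM). Of all tested genes, 5.17% were lower and 3.77% higher. The part of these markers in the result was not tested. Of 12 oligodendrocyte and myelin, 8 astrocyte, 8 neural progenitor and 8 hindbrain Hox genes tested, 0 were called.

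In the Lmx1b experiment, 6 of 9 fatty acid genes (Scd1, Scd2, Fasn, Acaca, Fads1 and Elovl6), the sterol enzymes Lss and Dhcr7, Srebf1, Srebf2 and Scap were lower, and Idi1, Fdps, Fdft1, Cyp51 and Msmo1 of cholesterol synthesis and Insig2 were higher, in the libraries labelled Lmx1b+/- than in WT. In all, 17 of 32 genes were called, 11 lower and 6 higher, against 36.7% of all 21729 tested genes (17.3% lower and 19.4% higher). Without WT 1, the library that was highest for Srebf2, Scap and Dhcr7, 14 were called, 6 lower and 8 higher, and 12 of them were among the 17. The share of all tested genes called without WT 1 is not given. Groups did not overlap for 19 of the 32, against 45.3% of all tested genes. The median log2 fold change was -0.04 over the 32 genes and -0.03 over all tested genes.

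Among the SREBP genes, 3 of 5 were lower and 1 was higher, where 17.3% of all tested genes were lower and 19.4% higher. Srebf1 lay at 47.8, 34.6 and 35.7 CPM in WT and 21.5, 35.7 and 23.3 CPM in Lmx1b+/-, where Lmx1b+/- 2 reached the WT range (log2 fold change -0.55, SE 0.18, adjusted p = 0.0263). Srebf2 lay at 208, 143 and 149 CPM in WT and 121, 123 and 103 CPM in Lmx1b+/- (-0.53, SE 0.14, adjusted p = 0.0112). Scap lay at 77.2, 51.7 and 56.6 CPM in WT and 45.4, 46.7 and 38.8 CPM in Lmx1b+/- (-0.50, SE 0.14, adjusted p = 0.0154). For Srebf2 and Scap the groups did not overlap, and WT 1 was well above the other WT libraries. Insig2, which retains Scap in the endoplasmic reticulum, was higher, with 21.1, 18.4 and 21.4 CPM in WT and 27.1, 25.4 and 32.4 CPM in Lmx1b+/- (0.48, SE 0.12, adjusted p = 0.00714). Its relative Insig1 lay at 52.8 to 58.9 CPM in WT and 49.3 to 56.9 CPM in Lmx1b+/- and was not called.

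In the mevalonate pathway, 3 of 8 genes rose and 0 fell, while 36.7% of all tested genes were called (19.4% higher and 17.3% lower). Idi1, which isomerises isopentenyl diphosphate, lay at 47.0, 42.4 and 41.2 CPM in WT and 59.4, 59.5 and 81.2 CPM in Lmx1b+/-, a rise of 53.3% (log2 fold change 0.62, SE 0.13, adjusted p = 0.00228). Fdps lay at 69.3, 60.6 and 69.7 CPM in WT and 115, 71.8 and 99.2 CPM in Lmx1b+/- (0.52, SE 0.14, adjusted p = 0.0115). Fdft1, the squalene synthase that commits farnesyl diphosphate to sterols, lay at 71.8, 78.8 and 80.2 CPM in WT and 127, 92.1 and 131 CPM in Lmx1b+/- (0.60, SE 0.12, adjusted p = 0.00211). These 3 enzymes stand next to each other in the pathway, and none of their groups overlapped, although Lmx1b+/- 2 was the lowest of its group for Fdps and Fdft1. Hmgcs1, with 517 to 558 CPM in WT and 530 to 695 CPM in Lmx1b+/-, and the squalene epoxidase Sqle, with 126 to 137 and 122 to 144 CPM, were not called.

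Of the 9 sterol enzymes, 2 were higher, 2 lower and 5 not called, near the shares of all tested genes (19.4% higher and 17.3% lower). Msmo1 lay at 68.2, 66.0 and 69.5 CPM in WT and 92.5, 91.5 and 129 CPM in Lmx1b+/- (log2 fold change 0.62, SE 0.12, adjusted p = 0.00172). The lanosterol demethylase Cyp51 lay at 159, 158 and 155 CPM in WT and 208, 176 and 232 CPM in Lmx1b+/- (0.38, SE 0.11, adjusted p = 0.0144). These enzymes of successive demethylation steps were higher in every Lmx1b+/- library than in any WT library. Lss, the lanosterol synthase just before them, was lower, at 71.2, 64.9 and 57.2 CPM in WT and 47.9, 47.6 and 44.6 CPM in Lmx1b+/- (-0.46, SE 0.10, adjusted p = 0.00210). Dhcr7, which reduces 7-dehydrocholesterol to cholesterol, was also lower, at 58.0, 44.1 and 42.4 CPM in WT and 36.2, 36.0 and 37.4 CPM in Lmx1b+/- (-0.40, SE 0.12, adjusted p = 0.0172). Tm7sf2, Nsdhl, Hsd17b7, Ebp and Sc5d ranged from -0.14 to 0.35 on the log2 scale.

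Among the fatty acid genes, 6 of 9 fell and 0 rose, against 17.3% of all tested genes lower and 19.4% higher. The largest fall of the 32 genes was that of Scd1, which lay at 102, 92.0 and 63.2 CPM in WT and 47.4, 44.5 and 56.5 CPM in Lmx1b+/- and fell by 42.2% (log2 fold change -0.79, SE 0.15, adjusted p = 0.00127). Scd2 lay at 1364, 1384 and 1102 CPM in WT compared with 828, 833 and 830 CPM in Lmx1b+/-, where the 3 libraries were nearly level (-0.63, SE 0.12, adjusted p = 0.00154). Both encode stearoyl-CoA desaturases, which place the first double bond in saturated fatty acids. Fasn lay at 505, 396 and 415 CPM in WT and 306, 306 and 229 CPM in Lmx1b+/- (-0.65, SE 0.15, adjusted p = 0.00385). Acaca, the cytosolic acetyl-CoA carboxylase that feeds it, lay at 94.5, 96.5 and 95.2 CPM in WT and 72.4, 68.0 and 65.6 CPM in Lmx1b+/- (-0.47, SE 0.08, adjusted p = 0.000728). Fads1, the delta-5 desaturase, lay at 162, 156 and 144 CPM in WT and 113, 116 and 96.2 CPM in Lmx1b+/- (-0.51, SE 0.10, adjusted p = 0.00186). None of these groups overlapped, and the 3 WT libraries of Acaca were nearly level. The elongase Elovl6 changed least of the called genes, at 88.2 to 95.3 CPM in WT and 68.0 to 83.4 CPM in Lmx1b+/- (-0.26, SE 0.09, adjusted p = 0.0389), and its call was kept in 1 of 9 fits that left out 1 library. Fads2, the delta-6 desaturase, just missed the threshold (adjusted p = 0.0514), and Acly, Acacb and Cpt1a were not called.

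**Figure D2:**
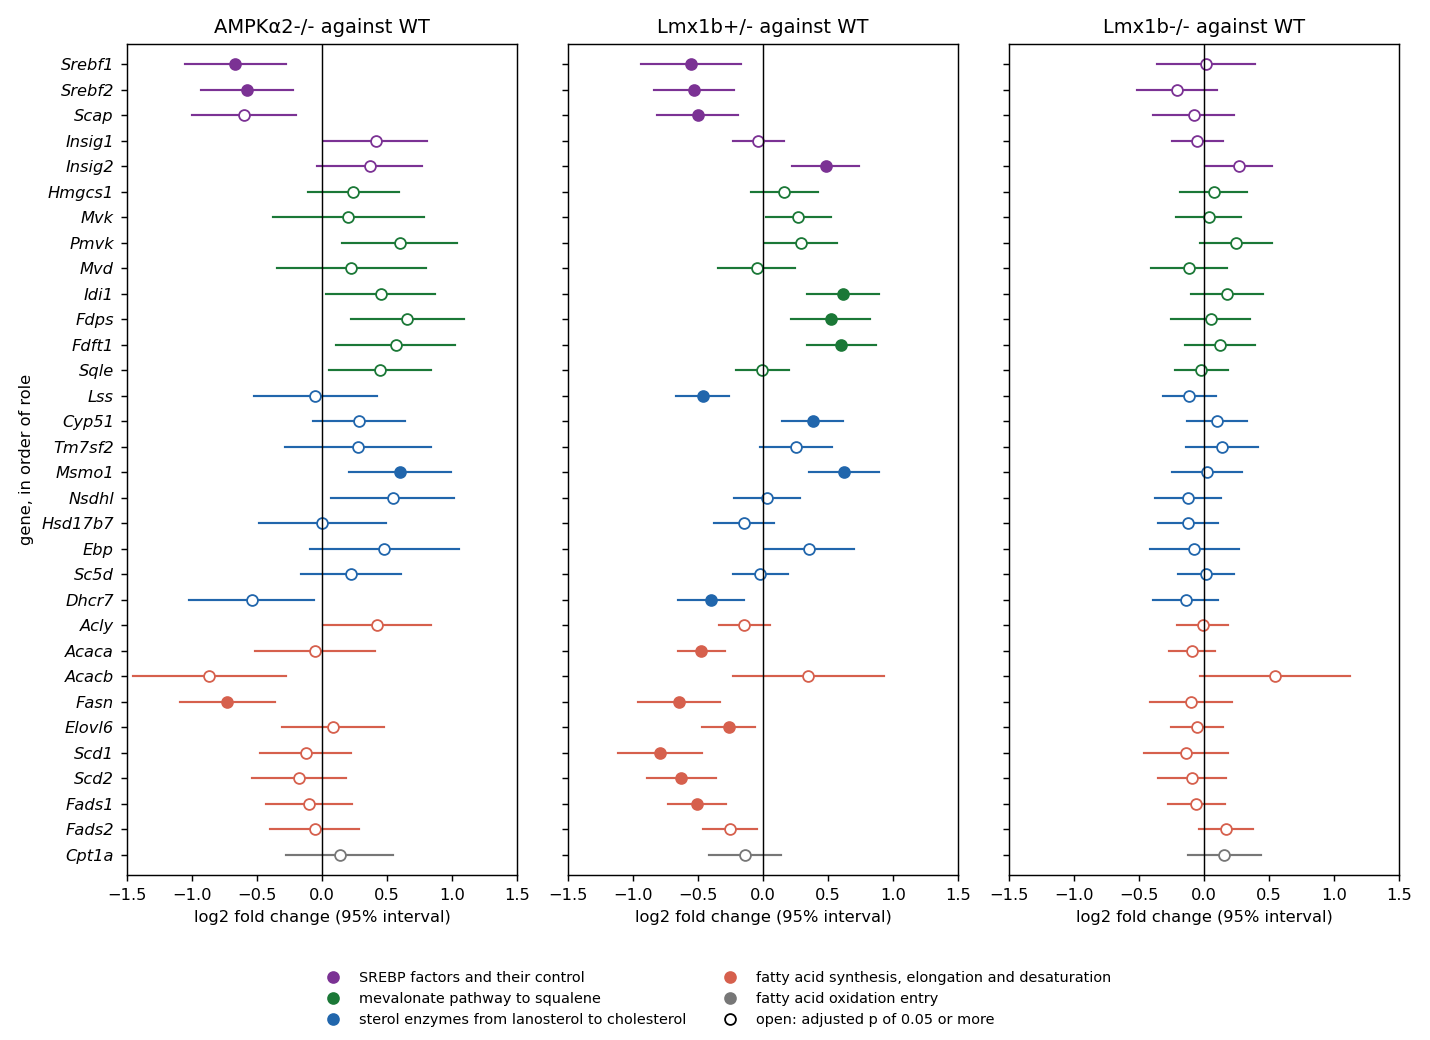
Log2 fold change of each gene with its 95% interval in the comparison of AMPKα2-/-, Lmx1b+/- and Lmx1b-/- with WT of the same experiment; filled points have an edgeR adjusted p under 0.05 and colours give the role. In the comparisons of AMPKα2-/- and Lmx1b+/- filled points lie on both sides of 0 (4 and 17 of 32), while in that of Lmx1b-/- 0 points are filled.

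These libraries differed in more than the 32 genes. Erythroid markers summed to 3547 to 7511 CPM in Lmx1b+/- and 509 to 1248 CPM in WT, with 6 of 6 called higher, and mitochondrially encoded genes took 9.58% to 14.7% of counts in Lmx1b+/- against 5.57% to 6.74% in WT. Of the markers, 9 of 12 for oligodendrocytes and myelin were lower (summed level of 305 to 374 CPM in Lmx1b+/- and 431 to 504 CPM in WT), 9 of 11 for neuronal synapses (1452 to 1587 CPM and 2129 to 2308 CPM) and 4 of 8 for astrocytes (1088 to 1273 CPM and 1299 to 1834 CPM). Neural progenitor markers summed to 1285 to 2028 CPM in Lmx1b+/- and 950 to 1009 CPM in WT, with 2 of 9 called higher, and hindbrain Hox genes to 119 to 174 CPM and 60.7 to 129 CPM, with 4 of 8 called higher. Of cerebellar granule markers 2 of 6 were lower (287 to 369 CPM and 362 to 466 CPM), and of 9 skeletal muscle markers 3 were higher and 1 lower (32.8 to 34.1 CPM and 31.3 to 36.3 CPM). Choroid plexus markers varied widely between libraries, at 84.7, 1628 and 933 CPM in Lmx1b+/- and 379, 228 and 332 CPM in WT, and 0 of 6 were called. Of all tested genes, 19.4% were higher and 17.3% lower, so that the count for neural progenitor markers lay near that of all genes. The part of these differences in the changes of the 32 genes was not tested. Adipocyte markers, a list of another lipogenic cell type, summed to at most 2.49 CPM in the libraries of this experiment.

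The direction of the calls also depended on scaling. Scaled by library size only, which moved the median of all genes to -0.27 and that of the genes described here to -0.28, 12 genes were lower and 0 higher. Limma on log2(RPKM + 1) gave 13 lower and 0 higher, with medians of -0.11 over all genes and -0.25 over the genes described here. RPKM are likewise scaled by library total only, so limma is not an independent result here. The shares of all tested genes called lower and higher under these settings are not given. All 6 genes called higher kept a positive log2 fold change under each alternative run, and all 11 called lower a negative one.

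In the libraries labelled Lmx1b-/-, 0 of 32 genes were called against WT, where the targeted gene itself was almost absent. Over all genes, 0.0184% of the 21729 tested were called, with 0 higher and 0.0184% lower. Log2 fold changes of the 32 genes ranged from -0.21 to 0.54 with a median of -0.02, against 0.01 over all tested genes. Groups did not overlap for 5 of the 32, against 18% of all tested genes, and 1 of the 32 had an unadjusted p under 0.05, against 8.09%. DESeq2, edgeR's likelihood-ratio test and limma also called 0 of the 32.

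The gene with the smallest p was Insig2, at 24.9, 26.2 and 22.2 CPM in Lmx1b-/- and 21.1, 18.4 and 21.4 CPM in WT (log2 fold change 0.27, 95% interval 0.01 to 0.52, adjusted p = 0.617). Acacb followed, at 5.94, 4.72 and 3.53 CPM in Lmx1b-/-, where WT had 3.90, 2.63 and 3.18 CPM (0.54, adjusted p = 0.631). The phosphomevalonate kinase gene Pmvk lay at 41.9, 46.0 and 44.9 CPM in Lmx1b-/-, where WT had 41.0, 30.0 and 40.9 CPM (0.25, adjusted p = 0.639). The groups did not overlap for Insig2 and Pmvk and overlapped for Acacb. Fads2 lay at 277, 285 and 286 CPM in Lmx1b-/-, where WT had 270, 237 and 250 CPM, without overlap (0.17, adjusted p = 0.664). Srebf2 lay at 143, 129 and 160 CPM in Lmx1b-/-, where WT had 208, 143 and 149 CPM, with overlap (-0.21, adjusted p = 0.700). For Srebf1, at 43.3, 37.1 and 39.0 CPM in Lmx1b-/-, the log2 fold change was 0.02, with a 95% interval from -0.36 to 0.39. Among genes called in Lmx1b+/-, the 95% intervals here were -0.46 to 0.18 for Scd1, -0.36 to 0.17 for Scd2, -0.41 to 0.21 for Fasn and -0.25 to 0.29 for Msmo1. These leave out the Lmx1b+/- values of the same genes, whereas that of Insig2 contains its Lmx1b+/- value of 0.48. Such a reading leaves aside the error of the Lmx1b+/- values and the WT libraries that both comparisons share. It is not a test between the mutant groups.

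The difference between the mutant groups was tested directly within the same fit, by comparing Lmx1b-/- with Lmx1b+/-. Here 13 of 32 genes were called, 9 higher and 4 lower in Lmx1b-/-, against 25.5% of all tested genes (11.5% higher and 14% lower), and groups did not overlap for 16 of the 32, against 42.4%. This comparison shares its Lmx1b+/- libraries with the comparison of Lmx1b+/- with WT, and values for the same genes are therefore given side by side only.

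All 9 fatty acid genes had a positive log2 fold change in Lmx1b-/- against Lmx1b+/-, and 6 were called. Scd1 lay at 76.1, 76.3 and 80.7 CPM in Lmx1b-/- (log2 fold change against Lmx1b+/- 0.65, SE 0.15, adjusted p = 0.00667). Scd2 lay at 1160, 1211 and 1237 CPM (0.53, SE 0.12, adjusted p = 0.00654). Fasn lay at 436, 354 and 438 CPM (0.55, SE 0.15, adjusted p = 0.0150). The Lmx1b-/- range overlapped the WT range for these 3 genes. Acaca lay at 90.4, 85.4 and 92.6 CPM (0.38, SE 0.08, adjusted p = 0.00482). Fads1 lay at 139, 146 and 159 CPM (0.45, SE 0.10, adjusted p = 0.00631). Fads2 lay at 277, 285 and 286 CPM against 215, 199 and 219 CPM in Lmx1b+/- (0.42, SE 0.10, adjusted p = 0.00623). In each of these, the lowest Lmx1b-/- library was above the highest Lmx1b+/- library.

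Srebf1 (0.57, SE 0.18, adjusted p = 0.0319), Scap (0.42, SE 0.14, adjusted p = 0.0469) and Lss (0.35, SE 0.10, adjusted p = 0.0161) were also higher on the log2 scale in Lmx1b-/- than in Lmx1b+/-, and Srebf2 was not called (0.32, SE 0.14, adjusted p = 0.124). Idi1, at 44.8, 54.5 and 48.0 CPM in Lmx1b-/-, was lower (-0.44, SE 0.13, adjusted p = 0.0225). Fdps was lower at 65.3, 73.1 and 68.6 CPM (-0.47, SE 0.14, adjusted p = 0.0276), and Lmx1b+/- 2 fell within its Lmx1b-/- range. Fdft1 was lower at 79.7, 88.0 and 83.6 CPM (-0.48, SE 0.12, adjusted p = 0.0124), and so was Msmo1 at 65.9, 68.1 and 72.7 CPM (-0.60, SE 0.12, adjusted p = 0.00341). For Idi1, Fdft1 and Msmo1 the groups did not overlap. Without Lmx1b+/- 3 the count was 6, without Lmx1b-/- 1 it was 6 and without Lmx1b-/- 3 it was 7. Scaled by library size only, which moved the median of all genes to 0.22 and that of the genes described here to 0.24, 11 genes were higher and 0 lower. Limma on log2(RPKM + 1), which shares the scaling by library total and is not an independent result, gave the same split. Its medians were 0.10 over all genes and 0.19 over the genes described here. The shares of all tested genes called higher and lower under these settings are not given.

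Erythroid markers were lower in Lmx1b-/- than in Lmx1b+/- (6 of 6, 1060 to 2380 CPM), and 10 of 12 oligodendrocyte and myelin markers (512 to 540 CPM), 9 of 11 synaptic markers (2112 to 2344 CPM) and 5 of 8 astrocyte markers (1554 to 1913 CPM) were higher. Of the others, 3 of 9 neural progenitor markers (1068 to 1178 CPM) and 1 of 8 hindbrain Hox genes (86.9 to 110 CPM) were lower, while mitochondrially encoded genes took 7.23% to 7.98% of counts. Of 9 skeletal muscle markers 4 were lower and 1 higher (29.7 to 37.9 CPM), 1 of 6 cerebellar granule markers was higher (311 to 368 CPM), and 0 of 6 choroid plexus markers were called (119 to 1289 CPM). Of all tested genes, 11.5% were higher and 14% lower. None of the listed markers was called between Lmx1b-/- and WT. Their part in the result was not tested.

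**Figure D3:**
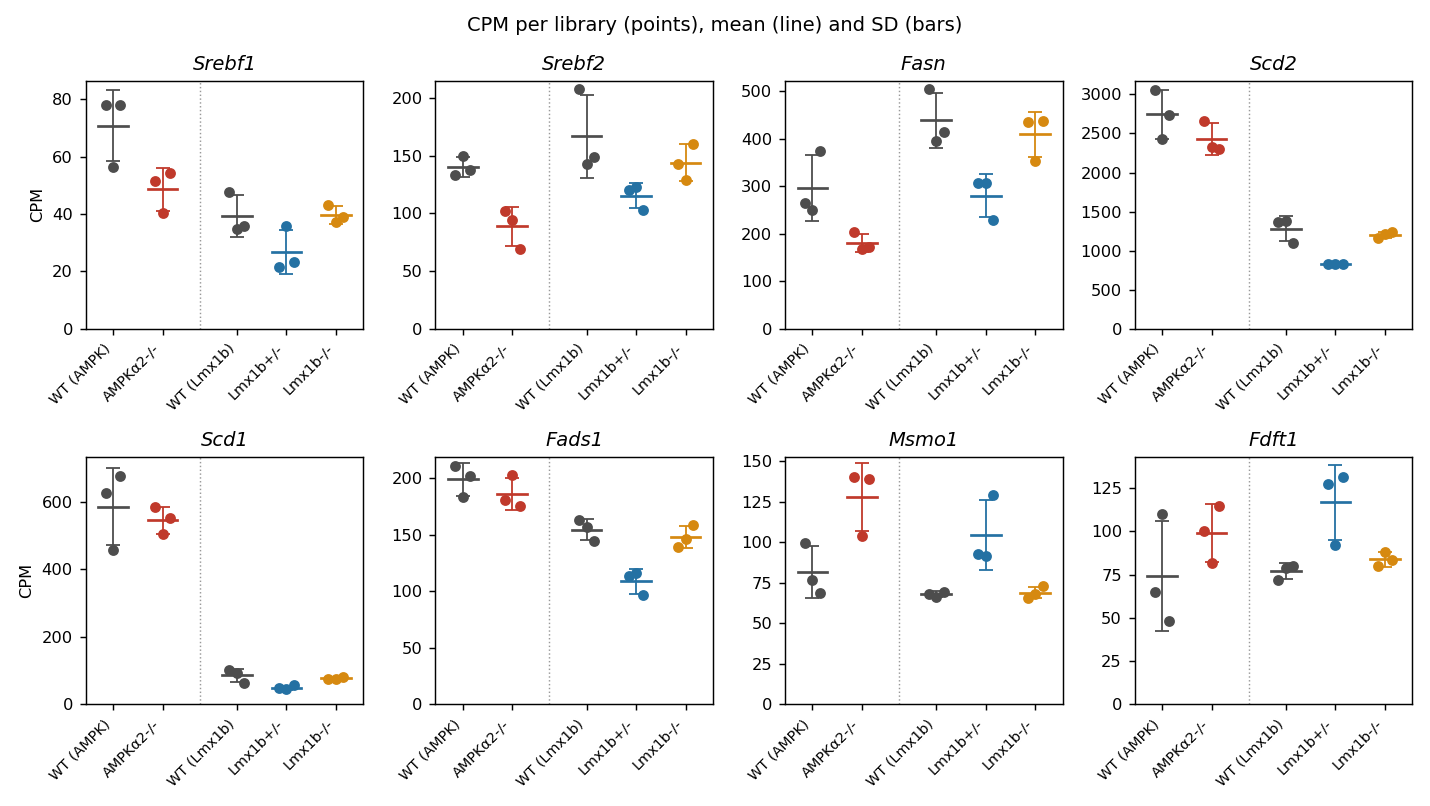
CPM of 8 genes in every library (points), with the mean (line) and SD (bars) of each group of 3; the dotted line separates the experiments and each axis starts at 0. Scd2, Scd1 and Fads1 are lower in Lmx1b+/- than in the other groups of that experiment, Fasn and Srebf2 are below WT in AMPKα2-/- and Lmx1b+/-, and Msmo1 is above WT in both.

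The comparisons of AMPKα2-/- with WT and of Lmx1b+/- with WT share no libraries, and their log2 fold changes can be set against each other. All 4 genes called in AMPKα2-/- were also called in Lmx1b+/- in the same direction, and of all genes called in AMPKα2-/- and tested in both, 79.4% were also called in Lmx1b+/-. Of the 17 genes called in Lmx1b+/-, 16 had the same sign in AMPKα2-/- (94.1%), which is near the 89.3% of all genes called in Lmx1b+/-. Over all 32 genes, 23 had the same sign (71.9%), against 76.1% of all 17140 genes tested in both, so that the shares of these genes lay near those of all genes. Among the exceptions were Acacb (-0.86 in AMPKα2-/- and 0.35 in Lmx1b+/-), Acly (0.42 and -0.14), Sqle (0.45 and -0.01) and Insig1 (0.41 and -0.04), of which none was called in either comparison. Scd1 (-0.12), Scd2 (-0.18) and Fads1 (-0.10), called in Lmx1b+/-, were near 0 in AMPKα2-/-, and whether they differ between the experiments was not tested.

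**Figure D4:**
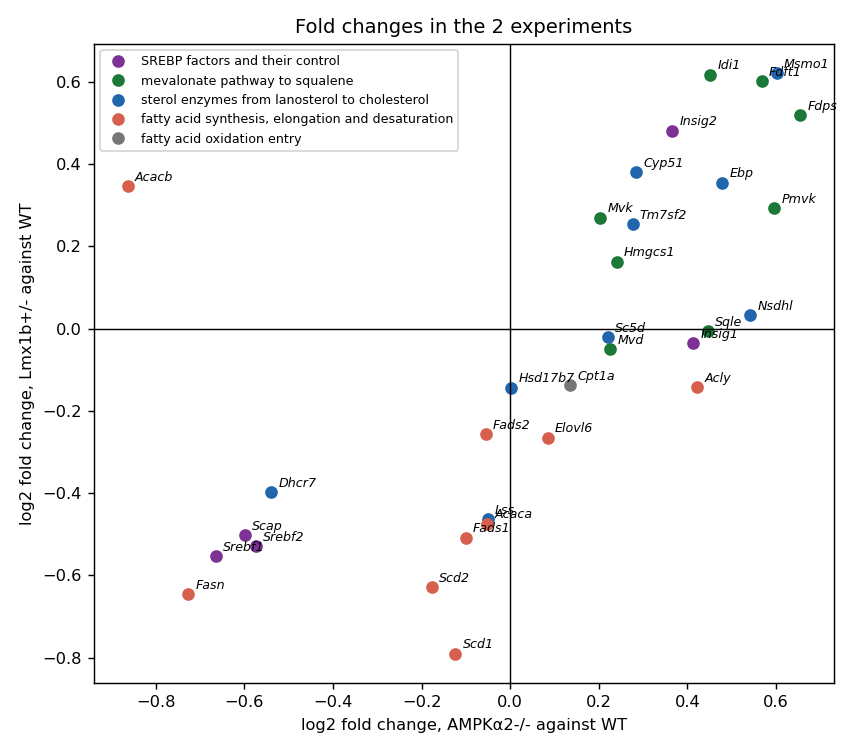
Log2 fold change of AMPKα2-/- against WT (x axis) and of Lmx1b+/- against WT (y axis) for the 32 genes, coloured by role. Of the 32 points, 23 lie at the lower left or upper right, with Fasn, Srebf1, Srebf2, Scap and Dhcr7 at the lower left and Msmo1, Fdft1, Fdps, Idi1 and Pmvk at the upper right.

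Gene length moved with the result in both comparisons. Across all tested genes, Spearman's rho between log2 fold change and gene length was -0.41 in AMPKα2-/- against WT, -0.41 in Lmx1b+/- against WT, -0.16 in Lmx1b-/- against WT and 0.44 in Lmx1b-/- against Lmx1b+/-, and over the 32 genes it was -0.61, -0.51, -0.28 and 0.57. These describe genes measured in the same libraries and are not tests. With GC content, the values over all genes were -0.27, -0.23, -0.22 and 0.17. Fasn (10947 bases, 57.9% GC), Srebf2 (7184 bases, 57.9% GC), Scap (7443 bases, 59.1% GC) and Acaca (17074 bases) are among the longer genes. Idi1 (3505 bases), Fdps (4208 bases) and Fdft1 (4116 bases) are shorter than these. Other genes went against this order. Msmo1, called higher in Lmx1b+/-, has 6144 bases, more than Scd1 (4892 bases), Scd2 (5464 bases) and Fads1 (4812 bases), which were called lower.

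When the trend of each library with GC content and gene length was removed, 12 of the 32 genes were called in Lmx1b+/- against WT, 9 higher and 3 lower, against 27.2% of all tested genes (15.7% higher and 11.5% lower), and 9 of them were among the 17 called before. Scd1 (log2 fold change -0.73, adjusted p = 0.00289), Scd2 (-0.48, adjusted p = 0.00744) and Fads1 (-0.34, adjusted p = 0.00858) were still lower, and these 3 genes were called lower in all 24 alternative fits. Msmo1 (0.71, adjusted p = 0.000736), Fdft1 (0.71, adjusted p = 0.00224), Fdps (0.61, adjusted p = 0.00823), Idi1 (0.46, adjusted p = 0.00938), Insig2 (0.41, adjusted p = 0.0143) and Cyp51 (0.39, adjusted p = 0.0102) were still higher. In contrast, Srebf1 (-0.18, adjusted p = 0.296), Srebf2 (-0.08, adjusted p = 0.575), Scap (-0.01, adjusted p = 0.957), Fasn (-0.10, adjusted p = 0.503) and Acaca (-0.05, adjusted p = 0.634) were no longer called. Lss, Dhcr7 and Elovl6 also lost their calls, and Mvk, Tm7sf2 and Acacb were called higher. In Lmx1b-/- against Lmx1b+/-, the split turned from 9 higher and 4 lower to 4 higher and 5 lower, against 17.7% of all tested genes (6.77% higher and 11% lower). In AMPKα2-/- against WT, 0 of 32 were called, against 1.79% of all tested genes (1.01% higher and 0.782% lower), with log2 fold changes of -0.09 for Fasn, -0.18 for Srebf1, -0.05 for Srebf2 and 0.68 for Msmo1. Which part of these trends is technical was not tested.

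**Figure D5:**
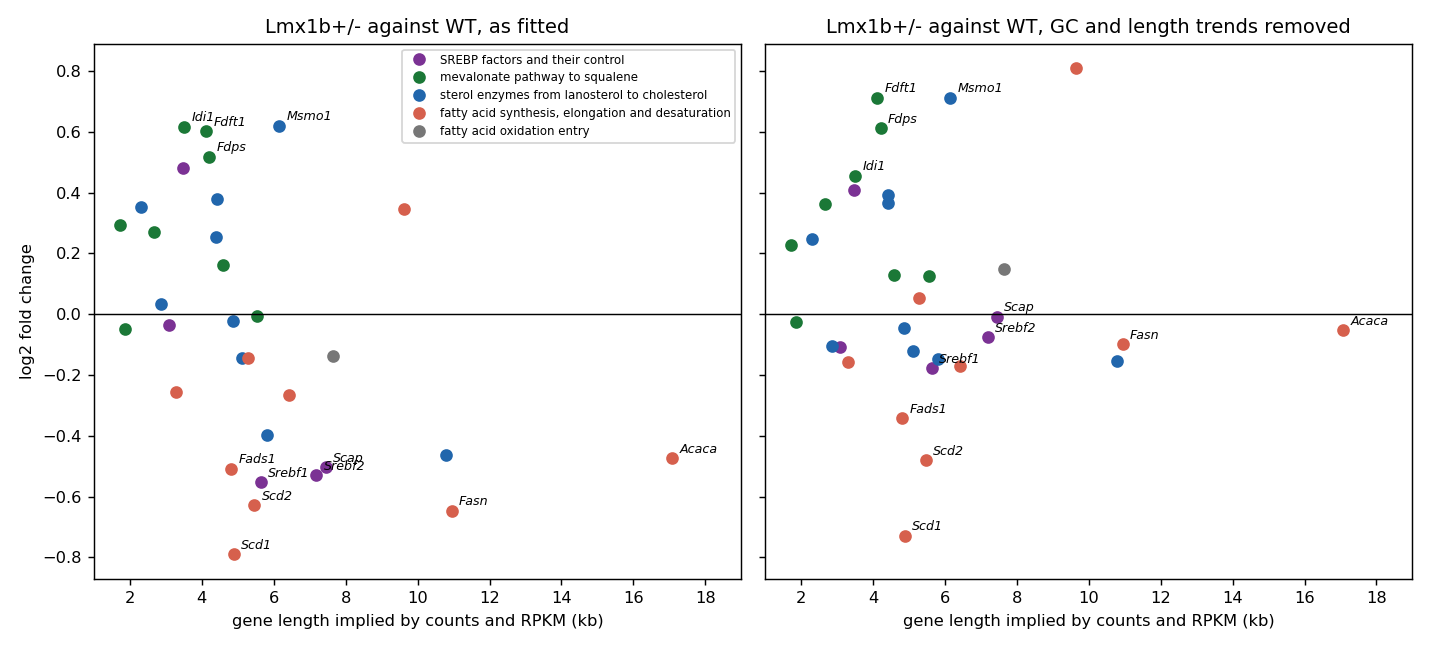
Log2 fold change of Lmx1b+/- against WT (y axis) by gene length in kb (x axis) for the 32 genes, as fitted (left) and with the GC and length trends of each library removed (right). Fasn, Acaca, Srebf1, Srebf2 and Scap move towards 0, from between -0.65 and -0.47 to between -0.18 and -0.01, while Scd1, Scd2 and Fads1 stay between -0.73 and -0.34 and Msmo1, Fdft1, Fdps and Idi1 between 0.46 and 0.71.

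Other genes of the pathway were described from 3 lists. Of 12 further SREBP pathway and acetyl-CoA supply genes, 1 was called in AMPKα2-/-, 5 in Lmx1b+/- (2 higher and 3 lower), 0 in Lmx1b-/- against WT and 3 in Lmx1b-/- against Lmx1b+/- (2 higher and 1 lower), where 8.94%, 36.7%, 0.0184% and 25.5% of all tested genes were called. These counts lay near the shares of all genes. Acat2, the cytosolic thiolase that starts the mevalonate pathway, was higher in AMPKα2-/- (log2 fold change 0.75, SE 0.21, adjusted p = 0.0268) and in Lmx1b+/- (0.49, SE 0.10, adjusted p = 0.00214) and lower in Lmx1b-/- against Lmx1b+/- (-0.46, SE 0.10, adjusted p = 0.00514). In Lmx1b+/-, Ggps1, which makes geranylgeranyl diphosphate, was also higher (0.42), and Mbtps1, the protease that makes the first cut in SREBPs (-0.49), Lpin1 (-0.46) and Acss2, the acetyl-CoA synthetase (-0.29), were lower.

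Of 11 genes of the LXR pathway, sterol efflux, transport and turnover, 7 were lower and 1 was higher in Lmx1b+/- than in WT, where 17.3% of all tested genes were lower and 19.4% higher. Those lower included Cyp46a1, the neuronal cholesterol 24-hydroxylase (log2 fold change -0.76, SE 0.15, adjusted p = 0.00157), the efflux transporters Abcg4 (-0.81, SE 0.15, adjusted p = 0.00100) and Abca1 (-0.48, SE 0.13, adjusted p = 0.0103), and Soat1, which esterifies cholesterol (-0.59, SE 0.12, adjusted p = 0.00188). Npc2, which hands cholesterol out of lysosomes, was higher (0.52, SE 0.10, adjusted p = 0.00121). In AMPKα2-/-, 2 of the 11 were called, where 5.17% of all tested genes were lower and 3.77% higher. These were Abcg4 (-0.74, adjusted p = 0.0346) and Cyp46a1 (-0.75, adjusted p = 0.0335), both lower. As given above, few of all tested genes were called in this comparison without the 2 shallow libraries. In Lmx1b-/- against Lmx1b+/-, 6 of the 11 were higher, against 11.5% of all tested genes. Of 12 genes of mitochondrial fatty acid oxidation, Cpt1b did not pass the filter, and of the other 11, 4 were called in Lmx1b+/-, with Acaa2 (0.58), Slc25a20 (0.34) and Etfdh (0.30) higher and Cpt1c (-0.43) lower, near the 36.7% of all tested genes, and 0 in AMPKα2-/- or in Lmx1b-/- against either group. In Lmx1b-/- against WT, 0 genes of any of the 3 lists were called.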

How the data were processed

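PolyA RNA of mouse brainstem was sequenced in 15 libraries, 3 per group, which were grouped by their labels. Of the table columns, that assigned to WT 3 of the AMPK experiment bears an unexplained suffix, and that assigned to WT 3 of the Lmx1b experiment is numbered like the name of its library. Raw counts per gene were deposited by the authors for either experiment, together with RPKM, and on the values these RPKM were found to equal counts over gene length and library total. HISAT2 and GRCm39 are named in the submitters' processing notes, while the counting method, the treatment of reads with several matches and the use of the kit's molecular indexes are not given in the sources used here. Symbols were matched for 51884 of 57180 genes (90.7%).

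Genes were tested with edgeR 4.0.16 in R 4.3.3 (filterByExpr, TMM, quasi-likelihood F-test, genotype as the only term, Benjamini-Hochberg adjustment over all tested genes), in a fit of 6 AMPK libraries and a fit of 9 Lmx1b libraries, and genes with an adjusted p under 0.05 were called. The level that a count of 0 allows (3 counts of the scaled total, counting error only) was 0.175 to 0.198 CPM in the deep and 9.07 to 9.98 CPM in the shallow libraries of the AMPK table, and 0.0676 to 0.109 CPM in the Lmx1b table. Also run were limma 3.58.1 on log2(RPKM + 1) or log2(RPKM + 0.1), the likelihood-ratio test of edgeR, DESeq2 1.42.0, other scalings and filters, a replicate block, a fit of only the genotypes compared, libraries left out, and removal of each library's lowess trend (span 0.3) with gene length. Removal of the GC trend, alone or with length, was added after the data were seen. The code was tested on simulated data. Log2 fold changes were named for the genes called in a comparison (where fewer than 5 were called, the 5 of smallest p) and always for Srebf1 and Srebf2. The members and lists were chosen with earlier results of these data known.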

Additional observations from a re-analysis of the deposited data

How the results depend on the processing

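Against the 4 genes of the set called in AMPKα2-/- against WT, the count was 2 with DESeq2, 0 with limma on log2(RPKM + 1) and 0 on log2(RPKM + 0.1), 2 with the length trend removed (2 higher and 0 lower), 1 with the GC trend removed, 0 with both removed, 2 with both removed and a replicate block, and 0 without the 2 shallow libraries. With 1 library left out the count ranged from 0 to 8, and at an unadjusted p under 0.05 it was 15. In Lmx1b+/- against WT 17 were called, 10 with the length trend removed and between 12 and 21 under the other settings, and the count ranged from 13 to 18 with 1 library left out. In Lmx1b-/- against WT it was 0 in every fit, and 1 at an unadjusted p under 0.05. In Lmx1b-/- against Lmx1b+/- it ranged from 6 to 15 with 1 library left out and was 6 with the GC and length trends removed and a replicate block. Splits of higher against lower calls under other scalings are given with each comparison. Shares of all tested genes called are given above for some of these settings only, so the other counts cannot be set against all genes. The cause of these changes was not tested.

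Direction turned for values near 0. For Prkaa2 the log2 fold change was 0.039 with the length trend removed and ranged from -0.35 to 0.033 with 1 library left out, where the fit without WT 3 gave the positive value. For Lmx1b in Lmx1b+/- against WT it was -0.030 and -0.047 with limma on log2(RPKM + 1) and log2(RPKM + 0.1), and from -0.30 to 0.56 with 1 library left out. For Srebf1 in Lmx1b-/- against WT it was -0.0028 and -0.0023 with limma on log2(RPKM + 1) and log2(RPKM + 0.1), -0.010 with library size only, -0.011 with only the 2 genotypes compared, and from -0.078 to 0.18 with 1 library left out. For Srebf2 in Lmx1b-/- against Lmx1b+/- it was -0.015 with the GC and length trends removed, and -0.013 with the replicate block added.

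With the replicate number as a replicate block, 3, 16, 0 and 12 genes of the set were called in AMPKα2-/- against WT, Lmx1b+/- against WT, Lmx1b-/- against WT and Lmx1b-/- against Lmx1b+/-. The shares of all tested genes called with the block are not given. Deviations of same-numbered libraries correlated at -0.12 to 0.05, -0.16 to -0.05, 0.08 to 0.15 and -0.18 to -0.13 in these comparisons. All 6 libraries correlated best with their own number in Lmx1b-/- against WT, and 0 did in each of the others. Whether the numbers mark pairs of libraries cannot be told from these values. At the depth of the shallow libraries, a gene under about 10 CPM could not be told from 0.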
